A study of Drosophila melanogaster with 2 samples.

Results

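The hairpins dme-mir-984, dme-mir-303 and dme-mir-982 belong to 1 miRNA cluster on the X chromosome of Drosophila melanogaster, a cluster that evolves fast and is known from testis. They were followed in small RNA libraries from ovaries. The members were chosen by name, with their log2 ratios between the libraries already known, together with any hairpin whose name starts with mir-983. This gave 3 members of the 235 hairpins in the miRNA tables. The neighbouring mir-983 copies, of which the annotation holds 2, are not analysed here. The first library came from peloPB60/1 ovaries, which carry the mutant pelo alleles PB60 and 1. The second came from pelo1/+ ovaries, which carry allele 1 over a normal copy, so both genotypes share the pelo1 allele. Both were made from dissected ovaries of females aged 3 to 5 days, and RNAs of 18 to 30 nt were sequenced. With 1 library per genotype, every difference below is between 2 libraries, has no replicate check and carries no p-value.

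A miRNA is cut from a hairpin in a longer transcript and guides an Argonaute protein to mRNAs that it represses. Hairpins that lie side by side are often cut from 1 primary transcript, after which each product is processed and turned over on its own. Young miRNA clusters of flies, this one among them, are mostly expressed in testis, and the targets of their miRNAs are little known. The gene pelo encodes Pelota, a factor that rescues stalled ribosomes and is needed to maintain germline stem cells of the ovary. In whole ovaries, fewer cells of a type and less RNA per cell cannot be told apart.

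In the Ensembl annotation of BDGP6 the cluster runs in the order mir-982, mir-303, mir-983-1, mir-983-2, mir-984, all on the minus strand. mir-982 and mir-303 overlap no other gene and lie between norpA, the phospholipase C of the photoreceptor, and CG3626. mir-984 lies opposite an intron of CG3626, a protein-coding gene on the plus strand. Each member has 2 annotated mature products, and the tables give 1 count per hairpin, so the arms cannot be separated. Their sequences were not used here.

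The miRNA table of peloPB60/1 held 1999224 reads on 235 hairpins, and that of pelo1/+ held 1819781 reads on 234 hairpins. Levels are given as CPM, the reads of a hairpin scaled to 1000000 reads of its miRNA table. The intervals are exact binomial 95% intervals, which cover counting error only and treat reads as independent. Reads without molecular identifiers are not independent molecules, so the intervals can be too narrow even for that error.

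All 3 members were higher in peloPB60/1 ovaries. miR-984 was the most abundant of them in both libraries. It had 11539 reads, or 5772 CPM (interval 5667 to 5878), in peloPB60/1, against 307 reads, or 168.7 CPM (interval 150.4 to 188.7), in pelo1/+. The intervals lay far apart, and the difference was 34.2-fold (log2 ratio 5.09, interval 4.93 to 5.26). Put as a frequency, 1 miRNA read in 173.3 was miR-984 in peloPB60/1, and 1 in 5928 in pelo1/+.

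miR-303 came second in both libraries. It had 1473 reads, or 736.8 CPM (interval 699.6 to 775.4), in peloPB60/1, against 95 reads, or 52.2 CPM (interval 42.2 to 63.8), in pelo1/+. The intervals again lay apart, and the level was 14.0-fold higher in peloPB60/1, a log2 ratio of 3.81 (interval 3.52 to 4.13).

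miR-982 was the rarest member. It had 119 reads, or 59.5 CPM (interval 49.3 to 71.2), in peloPB60/1, against 7 reads, or 3.85 CPM (interval 1.55 to 7.93), in pelo1/+. The difference was 14.5-fold, with a log2 ratio of 3.86 and a wide interval of 2.86 to 5.30. Its 7 reads were few even among rare hairpins. The median hairpin listed for that library had 21.0 reads, and 31 hairpins had fewer than miR-982.

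**Figure D1:**
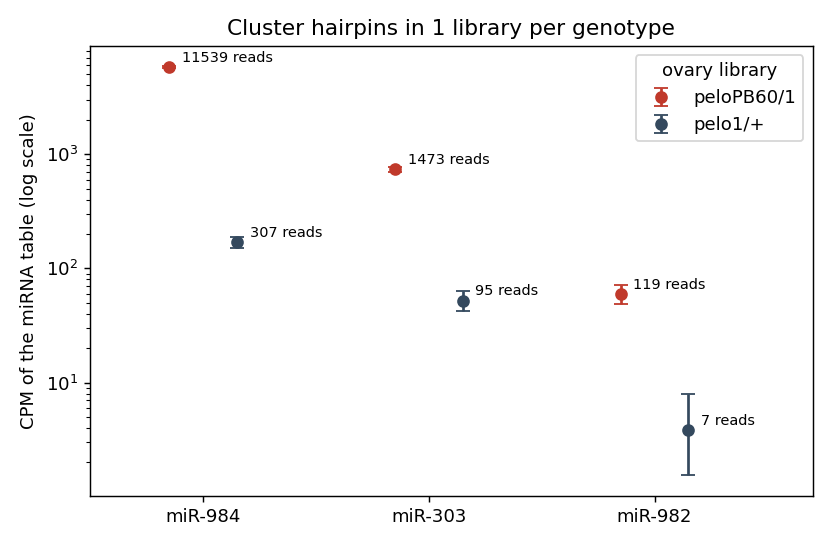
CPM of each cluster hairpin (log scale) in the peloPB60/1 library (red) and the pelo1/+ library (dark), with exact binomial 95% intervals for counting error and the read count beside each point. Each hairpin is higher in peloPB60/1, and the order miR-984, miR-303, miR-982 is the same in both libraries.

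Summed, the members had 13131 reads in peloPB60/1, which is 0.657% of the miRNA reads (interval 0.646% to 0.668%). In pelo1/+ they had 409 reads, or 0.0225% (interval 0.0203% to 0.0248%). The summed difference was 29.2-fold (log2 ratio 4.87, interval 4.73 to 5.01). At their pelo1/+ share, 449.3 cluster reads would have been counted in the peloPB60/1 table. The gain in share was 0.634 percentage points, and miR-984 made up 88.3% of it. miR-984 had the 6th largest gain in share among the 235 hairpins, and miR-303 and miR-982 had the 13th and the 25th.

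To be called, a hairpin needed at least 50 reads summed over both libraries, a difference of 2-fold or more, and an interval on 1 side of no difference. All 3 members passed the read filter and were called higher, where 15.7% of the 108 hairpins that passed it were. miR-982 passed the filter through its peloPB60/1 reads. Since the members were picked on this contrast, the count is a description. Their log2 ratios were the 3 highest of the 108, whose median was -0.34 with the miRNA total and 0.23 with miR-989 taken out of it. At 4-fold or more, 7.41% of the 108 were called higher, again with all 3 members among them. The members ranged from a rare to a moderately abundant hairpin.

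**Figure D2:**
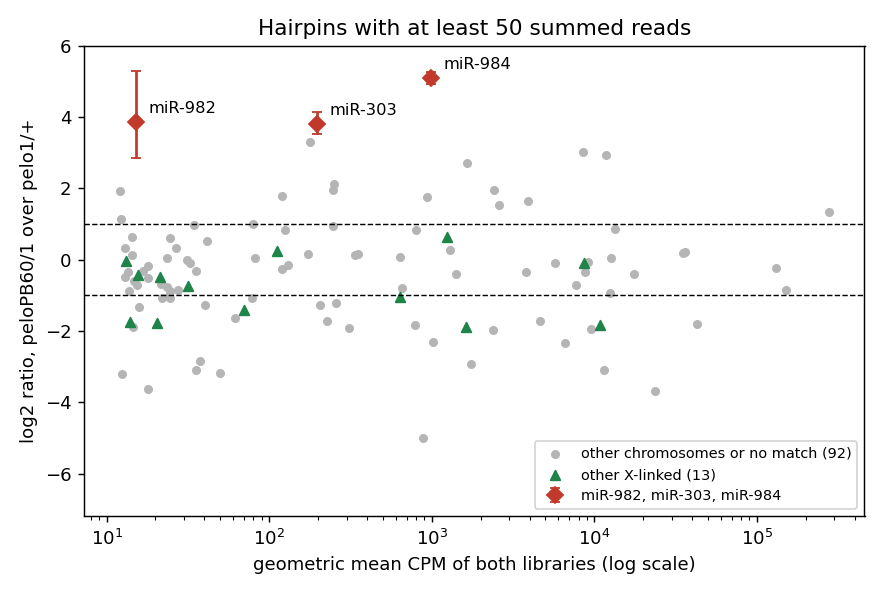
Log2 ratio of peloPB60/1 over pelo1/+ against the geometric mean CPM of both libraries (log scale) for the 108 hairpins with at least 50 summed reads. The 3 cluster hairpins (red, with counting intervals) lie above all others, while the 13 other X-linked hairpins (green) lie between -1.90 and 0.63, and dashed lines mark 2-fold.

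Ranks do not depend on scaling, and they moved by different amounts. miR-984 was 19th in peloPB60/1, between miR-995 with 12170 reads and miR-12 with 11395 reads. In pelo1/+ it was 50th, between miR-100 with 326 reads and miR-190 with 299 reads. miR-303 was 37th in peloPB60/1, between miR-304 with 1685 reads and miR-986 with 1313 reads. In pelo1/+ it was 70th, and the next hairpin below it was miR-980 with 75 reads.

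miR-982 moved furthest by rank, as it was 63rd in peloPB60/1 and 198th in pelo1/+. These are gains of 31 places for miR-984, 33 for miR-303 and 135 for miR-982. The large step of miR-982 crosses a dense band of rare hairpins. In peloPB60/1 123 of 235 hairpins had at most 20 reads, as did 116 of 234 in pelo1/+.

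Ratios between members within a library are free of any factor common to that library. There were 7.83 miR-984 reads per miR-303 read in peloPB60/1 (interval 7.42 to 8.28), against 3.23 in pelo1/+ (interval 2.56 to 4.11). The intervals did not overlap, and the ratio was 2.42 times as high in peloPB60/1 (interval 1.89 to 3.08). The difference between the libraries was therefore larger for miR-984 than for miR-303, beyond counting error if reads are taken as independent.

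The comparisons with miR-982 were limited by its 7 reads. There were 97.0 miR-984 reads per miR-982 read in peloPB60/1 and 43.9 in pelo1/+. That is a factor of 2.21, but its interval of 0.863 to 4.75 includes no difference. There were 12.4 miR-303 reads per miR-982 read in peloPB60/1 and 13.6 in pelo1/+. This factor was 0.912 (interval 0.349 to 2.02), so no unequal change of this pair was detectable at this depth, and a factor of 2 in either direction lies within the interval.

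**Figure D3:**
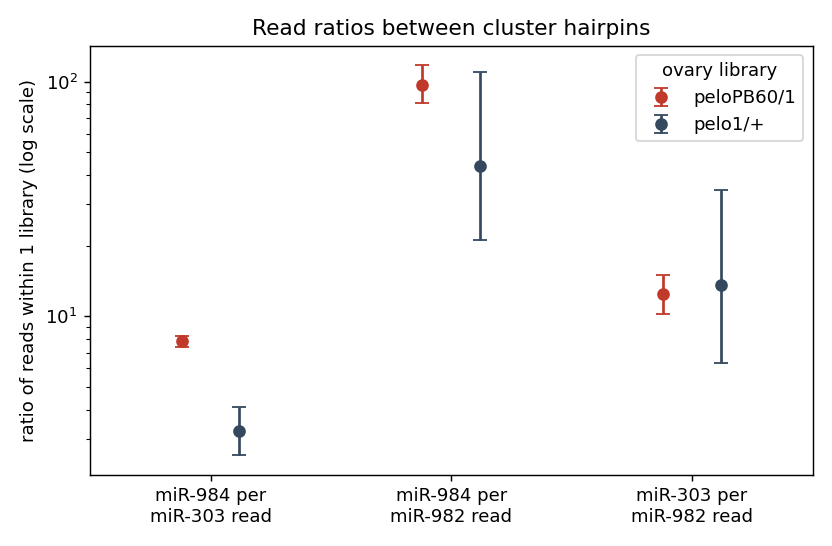
Reads of 1 cluster hairpin per read of another within the peloPB60/1 library (red) and the pelo1/+ library (dark), on a log scale with exact 95% counting intervals. The libraries are separated for miR-984 per miR-303 read, at 7.83 and 3.23, and overlap for both ratios to miR-982.

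The make-up of the cluster's reads differed accordingly. miR-984 supplied 87.9% of them in peloPB60/1 (interval 87.3% to 88.4%) and 75.1% in pelo1/+ (interval 70.6% to 79.2%). miR-303 supplied 11.2% in peloPB60/1 (interval 10.7% to 11.8%) and 23.2% in pelo1/+ (interval 19.2% to 27.6%). miR-982 supplied 0.906% in peloPB60/1 and 1.71% in pelo1/+, with overlapping intervals. Reads of different hairpins also depend on how well each is ligated and amplified, so these are shares of reads and not of molecules.

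With the miRNA total, the other hairpins of the X chromosome gave no call in the direction of the cluster. Of 45 X-linked hairpins outside it, 13 passed the read filter, of which 0 were called higher, 6 lower and 7 neither, with a median log2 ratio of -0.74. Over all 108 hairpins 15.7% were called higher and 31.5% lower. The highest of the 13 was miR-13b-2, a copy of the K-box family miR-13b, with 3066 reads in peloPB60/1 and 1809 in pelo1/+ (log2 ratio 0.63). Its reads can be shared with the second miR-13b copy, mir-13b-1. That copy went the other way, with 24 reads in peloPB60/1 and 191 in pelo1/+ (log2 ratio -3.10). When totals were taken without miR-989, miR-13b-2 was called higher, which made 1 of 13, and 4 to 6 were called lower across the scalings tried. The nearest listed X-linked hairpins on either side of the cluster were rare in both libraries. mir-4962 had 27 reads in peloPB60/1 and 33 in pelo1/+, and mir-3645 had 11 reads in peloPB60/1 and 16 in pelo1/+.

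The hairpins beside which miR-984 and miR-303 ranked in peloPB60/1 include miR-12 and miR-304 of another X-linked cluster, with miR-283. Both were lower in peloPB60/1. miR-12 was at 5700 CPM in peloPB60/1 and 20433 CPM in pelo1/+ (log2 ratio -1.84), and miR-304 was at 842.8 CPM in peloPB60/1 and 3147 CPM in pelo1/+ (log2 ratio -1.90). There were 1.01 miR-984 reads per miR-12 read in peloPB60/1 (interval 0.987 to 1.04), against 0.00826 in pelo1/+ (interval 0.00736 to 0.00924). There were 0.874 miR-303 reads per miR-304 read in peloPB60/1 (interval 0.815 to 0.938), against 0.0166 in pelo1/+ (interval 0.0134 to 0.0203). The pairs were picked as rank neighbours in peloPB60/1, which fixes their ratios there near 1. They also hold the rank neighbours that were called lower. The other neighbours there, miR-995 (log2 ratio -0.70) and miR-986 (log2 ratio 0.08), were called neither. miR-283 of the same cluster as miR-12 was called neither as well (log2 ratio -0.09).

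Other young clusters known from testis held few reads in both libraries. The miR-959 to miR-964 cluster held 721 reads in peloPB60/1 and 556 in pelo1/+, a summed log2 ratio of 0.24. Of its 6 members, 1 was called higher, 2 lower and 3 neither, with a median of -0.21. These shares are near those over all 108 hairpins, 15.7% higher and 31.5% lower. That median was above 0 under 4 of the 7 other scalings, up to 0.36 without miR-989, and 1 rather than 2 members were lower under 5 of them. Its highest member, miR-962, had 443 reads in peloPB60/1 and 117 in pelo1/+ (log2 ratio 1.78).

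The 8 hairpins of the miR-972 to miR-979 cluster are X-linked too and are among the 45 X-linked hairpins counted above. Summed, they had 80 reads in peloPB60/1 and 63 in pelo1/+ (log2 ratio 0.21, interval -0.29 to 0.71). Each had 7 to 15 reads in peloPB60/1 and 2 to 12 in pelo1/+, so none passed the filter. miR-982 in pelo1/+, at 7 reads, lay within that range. miR-991 and miR-992 together had 81 reads in peloPB60/1 and 70 in pelo1/+, and neither was called with the miRNA total. There were 18.2 reads of miR-984, miR-303 and miR-982 per read of the miR-959 to miR-964 cluster in peloPB60/1, and 0.736 in pelo1/+.

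The cluster's place among the genomic clusters follows from the choice of its members on these ratios and is given as a description. Grouping hairpins of a strand that lay within 10000 bp of the next gave 16 clusters in which 2 or more hairpins passed the read filter. The 3 members made the 1 cluster in which every such hairpin was called higher. In 1 other cluster, that of mir-13b-1 and mir-13a, every such hairpin was called lower. The log2 ratios of the 3 members spanned 1.28, the 5th narrowest span of the 16, whose median was 2.49. miR-982, with 119 reads in peloPB60/1 and 7 in pelo1/+, entered through the library in which it was high. In 5 of the 16 clusters 1 or more hairpins were called higher and others lower.

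**Figure D4:**
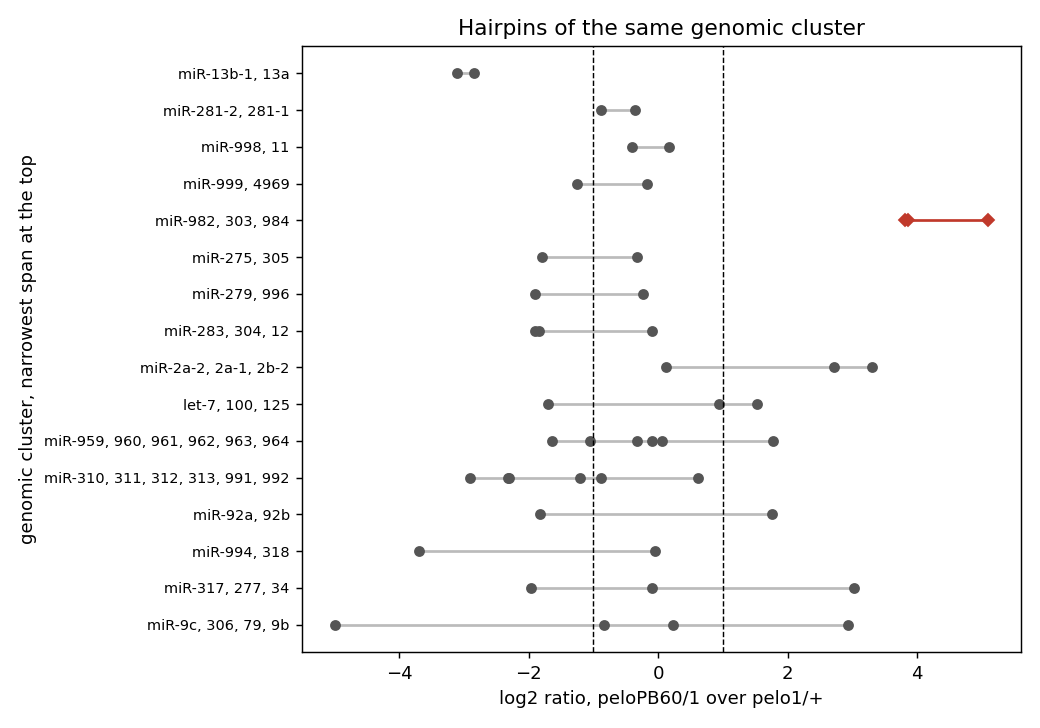
Log2 ratio of peloPB60/1 over pelo1/+ for each hairpin with at least 50 summed reads in the 16 genomic clusters, with the narrowest span at the top and lines joining the extremes of a cluster. The miR-984, miR-303 and miR-982 hairpins (red diamonds) span 3.81 to 5.09, to the right of the hairpins of all other clusters drawn.

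Among hairpins with at least 50 summed reads, the 5 outside the cluster with log2 ratios nearest to its summed value were all at least 1.57 log2 units below it. They were miR-2a-1 (3.30), miR-34 (3.02), miR-9b (2.93), miR-2b-2 (2.72) and miR-316 (2.12). None of the 5 is X-linked, and the likeness rests on 1 ratio of 2 libraries. miR-2a-1 was closest to miR-303 in level, with 1117 reads in peloPB60/1 and 103 in pelo1/+. miR-2a-1 and miR-2b-2 have near-identical copies that can share their reads, so their single values are uncertain. These copies did not show the same rise. mir-2a-2 had 702 reads in peloPB60/1 and 586 in pelo1/+ (log2 ratio 0.12). mir-2b-1 had 15 in peloPB60/1 and 52 in pelo1/+ (log2 ratio -1.90).

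Markers of the cell types that a dissected ovary can hold also differed between the libraries. Of the muscle sheath markers, miR-1 had 13793 reads in peloPB60/1 and 4037 in pelo1/+ (log2 ratio 1.64), and miR-133 had 12 in each. The follicle cell markers miR-989, miR-318 and miR-994 summed to 45.9% of miRNA reads in peloPB60/1 and 26.9% in pelo1/+. They did not move together, with 1 called higher, 1 lower and 1 neither. miR-989 was higher (log2 ratio 1.35), miR-994 was lower (log2 ratio -3.69) and miR-318 was neither (log2 ratio -0.05). Of 6 female germline markers, 5 were called lower (4 under 4 of the 7 other scalings) and 0 higher, where 31.5% of the 108 hairpins were called lower and 15.7% higher. The lower ones were bantam and the run from miR-310 to miR-313. That run lies in 1 genomic cluster with miR-991 and miR-992, so its calls are not separate evidence. The most abundant marker of the list, miR-184, was called neither. It had 74464 reads in peloPB60/1 and 59612 in pelo1/+ (log2 ratio 0.19). The germline list summed to 4.63% in peloPB60/1 and 7.38% in pelo1/+, and which cells of the ovary its reads came from was not tested. The 4 neuronal markers summed to 151 reads in peloPB60/1 and 265 in pelo1/+ (log2 ratio -0.95). The 1 of them past the read filter, miR-210, had 86 reads in peloPB60/1 and 210 in pelo1/+. It was called lower, though not when totals were taken without miR-989. Below the filter the others were split. miR-124 had 36 reads in peloPB60/1 and 11 in pelo1/+, and miR-263b had 20 in peloPB60/1 and 14 in pelo1/+. miR-193 went the other way, with 9 reads in peloPB60/1 and 30 in pelo1/+.

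Set against these lists within each library, the cluster was higher in peloPB60/1 for each of the 4 lists. This follows from the choice of the members on their ratios, since no list rose as much as the cluster. The factors are given as a description. Per 1000 reads of the muscle markers there were 951.2 cluster reads in peloPB60/1 and 101.0 in pelo1/+, a factor of 9.42. This is in effect a factor against miR-1, which had 13793 of the 13805 muscle marker reads in peloPB60/1 and 4037 of 4049 in pelo1/+. The other muscle marker, miR-133, had 12 reads in each library. Per 1000 reads of the follicle cell markers there were 14.3 in peloPB60/1 and 0.837 in pelo1/+, a factor of 17.1. That sum is mostly miR-989, which had 886701 of its 917718 reads in peloPB60/1 and 316447 of 488799 in pelo1/+. Against single markers the factor was 11.5 for miR-989, 30.3 for miR-318 and 378.3 for miR-994. Per 1000 reads of the germline markers there were 141.7 in peloPB60/1 and 3.04 in pelo1/+, a factor of 46.6. Per read of the neuronal markers there were 87.0 in peloPB60/1 and 1.54 in pelo1/+, a factor of 56.3. The part of cell composition in the difference was not tested.

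**Figure D5:**
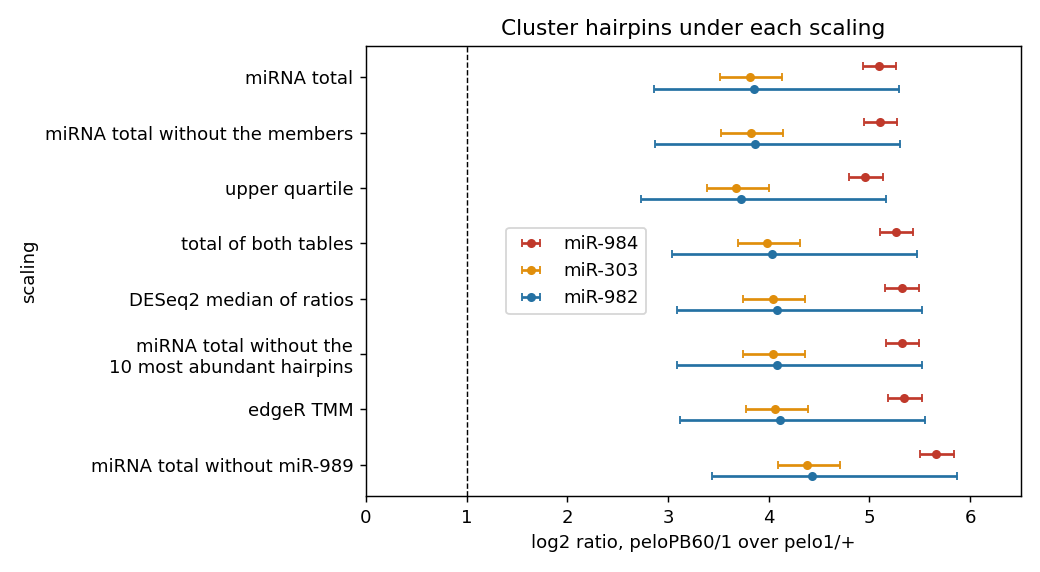
Log2 ratio of peloPB60/1 over pelo1/+ for miR-984 (red), miR-303 (orange) and miR-982 (blue) under the miRNA total and 7 other scalings, with exact 95% counting intervals and a dashed line at 2-fold. Every interval lies above 2-fold, and miR-984 runs from 4.96 with the upper quartile to 5.66 with miR-989 left out of the total.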

How the data were processed

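The authors deposited raw counts of reads per hairpin (miRNA tables) and per transposon, repeat or interval (piRNA tables), without normalization. A hairpin listed for 1 library only was given 0 in the other. Bowtie 0.12.7 and the build BDGP5 are named, without roles, in the submitters' processing notes. The miRNA reference, mismatches allowed, strand, trimming and treatment of multiple matches are not stated in the labels or tables. Genotypes were taken from the labels, and the tables hold no check of them.

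Counts were divided by the miRNA table's total (CPM), which covers 1 class of reads, not the whole library. Log2 ratios used 0.5 added counts, and their intervals are exact conditional (Clopper-Pearson) intervals of the unmodified counts. A count of 0 allows up to 3 counts, or 1.50 CPM in peloPB60/1 and 1.65 CPM in pelo1/+. Ratios of ratios between members are plain ratios of the counts, and their intervals are those of the conditional odds ratio. edgeR 4.0.16 (TMM) and DESeq2 1.42.0 (median of ratios) gave scaling factors only. Scripts ran in Python 3.11.15 with scipy 1.17.1, and the computation was tested on simulated counts. Gene neighbours and chromosomes were looked up in Ensembl's BDGP6 annotation, which matched 233 of 235 hairpins. BDGP6 differs from BDGP5, so its coordinates are not given. The planned grouping by shared seed was not done. piRNA tables entered 1 scaling only.

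The members and lists were chosen with earlier results of these data known. Named beside the members were the 5 hairpins nearest to their summed log2 ratio, rank neighbours, and list members. The X-linked neighbours and miR-283 cluster were named after their values were seen.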

Additional observations from a re-analysis of the deposited data

How the results depend on the processing

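No paired analysis was possible because there is only 1 peloPB60/1 and 1 pelo1/+ library, and for that reason neither could be left out. Of 61 values recomputed under alternatives, 46 stayed within their counting interval or within 1.5 times the count, 15 moved and 0 changed sign. A scaling shifts every log2 ratio alike, from -0.13 (upper quartile) to 0.57 (miRNA total without miR-989). The summed log2 ratio was 5.04 with the total of both tables, 5.12 with TMM, 5.09 with median-of-ratios factors, 5.09 without the 10 most abundant hairpins and 5.44 without miR-989. In the same order that of miR-984 was 5.27, 5.35, 5.32, 5.32 and 5.66. That of miR-303 was 4.38 without miR-989. Summed without miR-303 the ratio was 5.08, and without miR-984 3.82. All 3 members were called higher under every alternative but the filter of 200 summed counts, which miR-982 does not reach, leaving 2. With the miRNA total 17 hairpins were called higher and 34 lower. The split was 23 and 28 with TMM, and without miR-989 it turned round to 27 higher and 24 lower. At 4-fold 8 were called higher. Depth limits miR-982 most, through its 7 reads in pelo1/+.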
